A study of Mus musculus with 21 samples.

Results

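The 10 genes described here handle iron and heme: Alas1, Fech, Hmox1, Blvrb, Abcg2, Tfrc, Slc11a2, Fth1, Ftl1 and Slc40a1. They were taken by symbol from the 24454 genes of the deposited table, a rule that uses no measured value, and all 10 were among the 13719 genes that passed the filter on low counts. RNA was sequenced from mouse embryonic fibroblasts (MEFs) in 21 libraries, 3 in each of 7 groups. The study asked how loss of the helicase RTEL1 and stabilisation of G-quadruplexes (G4-DNA, folded structures of guanine-rich DNA) change transcription. Because the G4 ligand used, TMPyP4, is itself a porphyrin, the genes of heme and iron handling were compared between TMPyP4 treatment and the Cre groups.

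All 7 groups were adenovirus-infected MEFs with floxed alleles, collected 96 h after infection. Rtel1f/f cells received Ad-GFP (+GFP, the control virus), Ad-Cre (+Cre, which deletes Rtel1), or Ad-GFP with 10 µM TMPyP4 for the last 48 h (TMPyP4). Rtel1f/f cells transduced with RTEL1 C1252A/C1255A (the CA line, which makes RTEL1 with both cysteines replaced) received Ad-GFP or Ad-Cre. Trf1f/f cells, in which Cre deletes the telomere-binding gene Terf1, also received Ad-GFP or Ad-Cre. The labels call the libraries of a group biological replicates without saying that they came from separate cultures, so p-values measure the spread between these libraries. No group combined TMPyP4 with Cre, TMPyP4 was given to Rtel1f/f cells alone, and the labels name no vehicle for the untreated groups.

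Heme is built from simple precursors along a chain of enzymes that starts with ALAS1, the rate-limiting step, and ends with FECH (ferrochelatase), which inserts iron into protoporphyrin. HMOX1 (heme oxygenase) opens heme and frees its iron. BLVRA is the main reductase of the biliverdin formed, and BLVRB is a second biliverdin reductase. ABCG2 pumps porphyrins out of the cell. Cells take up transferrin-bound iron through TFRC, move it across the endosomal membrane with SLC11A2, store it in ferritin shells of FTH1 and FTL1, and release it through SLC40A1 (ferroportin), the known iron exporter of mammalian cells. Iron regulatory proteins bind stem-loops called iron-responsive elements in several of these messages: in iron-poor cells they block translation of messages with a loop ahead of the coding sequence and protect Tfrc mRNA, whose loops lie behind it. An RNA level therefore reads only part of this control.

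The stem-loops are shown because they are the known route by which iron acts on some of these messages. The transcripts (GENCODE, GRCm38, the same assembly as mm10) were searched for the loop CAGTGN, its last base not G, with a C 6 bases before it and 5 paired bases on either side. Fth1, Ftl1 and Slc40a1 each had a match in exon 1 in the 5′ untranslated region (UTR), and Tfrc had 4 in exon 19 in the 3′ UTR. The capitals mark the loop, read 5′ to 3′ along the transcript.
Fth1, 5′ UTR, chr19:9982732-9982761 (+): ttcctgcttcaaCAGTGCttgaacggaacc
Ftl1, 5′ UTR, chr7:45459778-45459807 (-): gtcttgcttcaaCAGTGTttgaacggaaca
Slc40a1, 5′ UTR, chr1:45925464-45925493 (-): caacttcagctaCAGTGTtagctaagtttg
Tfrc, 3′ UTR, chr16:32631219-32631248 (+): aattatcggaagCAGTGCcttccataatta
Tfrc, 3′ UTR, chr16:32631598-32631627 (+): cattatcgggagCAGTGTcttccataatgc
Tfrc, 3′ UTR, chr16:32631663-32631692 (+): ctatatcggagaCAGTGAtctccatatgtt
Tfrc, 3′ UTR, chr16:32631710-32631739 (+): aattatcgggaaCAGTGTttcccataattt
Such a match was found in the 5′ UTR of 0.105% and in the 3′ UTR of 0.457% of 21877 coding genes. A match describes the letters of the transcript and does not show that the element is used in these cells. The pattern is strict, since all 5 pairs must form, and can miss elements. A gene without a match, such as Slc11a2, was therefore not shown to lack one, and the matches in Tfrc may not be all of its elements.

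**Figure D1:**
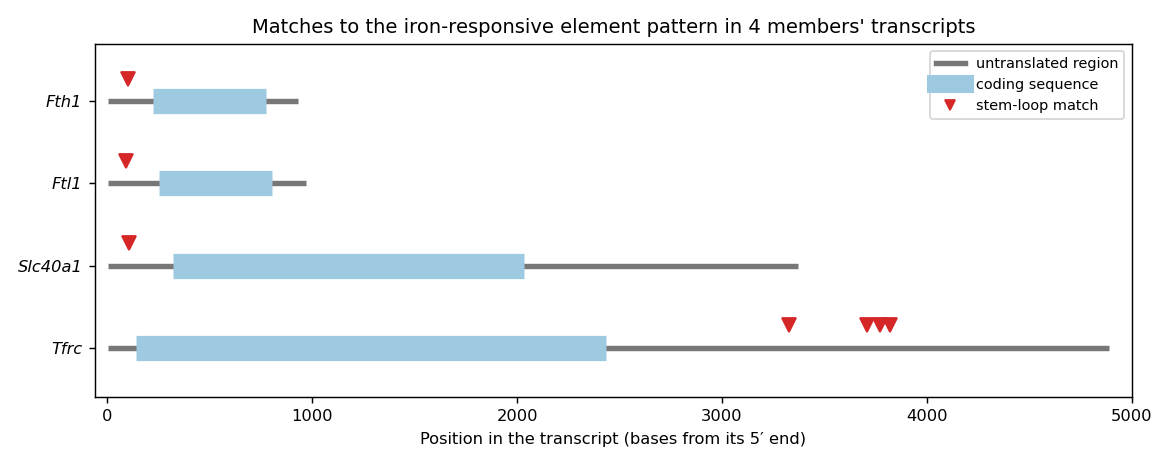
Position of the stem-loop matches (triangles) along the transcripts of Fth1, Ftl1, Slc40a1 and Tfrc, in bases from the 5′ end, with the coding sequence as a thick bar and UTRs as lines. Fth1, Ftl1 and Slc40a1 have 1 match ahead of the coding sequence and Tfrc has 4 behind it.

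Because TMPyP4 binds G4-DNA, the stretches before the genes were searched for a G4 motif, 4 runs of at least 3 G separated by 1 to 7 bases, on either strand. Promoter windows of 250 bases before to 50 after a start site were held for 6 of the 10 genes (RefSeq, GRCm38.p6), with 12 windows in all. Of these, 4 windows held the motif (33.3%), against 18.6% of all 32851 windows. The motifs are printed 5′ to 3′ along the gene's own strand with the G or C runs in capitals, and runs of C place the motif on the opposite strand.
Abcg2, chr6:58596555-58596576 (+): GGGGatGGGGGcGGGGGcGGGG
Tfrc, chr16:32609110-32609132 (+): GGGcctGGGtggtgcGGGcGGGG
Ftl1, chr7:45459988-45460005 (-): GGGactGGGtGGGtGGGG
Ftl1, chr7:45460098-45460123 (-): CCCggagCCCagaaCCCtgcgaCCCC
Blvrb, chr7:27447732-27447760 (+): CCCCggccggCCCCgCCCCgctcagCCCC
Alas1 and Fth1 had windows without it, and Hmox1, Fech, Slc40a1 and Slc11a2 were not analysed here. The Tfrc motif spanned the start site, from base -12 to base 10.

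Libraries held 32069888 to 51938593 counts, with a median of 43013208. In Rtel1f/f cells Rtel1 was at a normalised read count of 59.1 to 66.2 CPM (counts scaled to library size) with +GFP and 26.8 to 31.9 with +Cre, and Terf1 was at 27.9 to 30.3 CPM in Trf1f/f +GFP and 0.0268 to 0.110 in Trf1f/f +Cre libraries. In the CA line Rtel1 counts (253 to 338 CPM) include the introduced copy. Fibroblast markers summed to at least 2295 TPM (RSEM's transcript abundance, scaled for length and library size) in every library, erythroid markers to at most 1.22 TPM, and macrophage markers to 9.19 to 16.5 TPM. Among the macrophage markers Cd14 (4.3 to 12.1 TPM) and Cd68 (1.64 to 11.6 TPM) were highest. Csf1r was at 0.1 to 0.73 TPM, Lyz2 at 0 to 0.43 TPM, and Ptprc and Adgre1 were near 0. The 3 Rtel1f/f +GFP libraries stood apart from the other libraries of the Rtel1f/f and CA lines: they lay at 55.7 to 76.4 on the first principal component (52.4% of variance), TMPyP4 at 2.05 to 26.4 and the 9 others below 0, and their summed fibroblast markers, 5304 to 5799 TPM, were above the 2295 to 4180 TPM of those others. Of the 6 markers summed, Col1a1, Col1a2, Pdgfra and Pdgfrb were higher in these 3 libraries without overlap, and Vim overlapped. Thy1 was near 0 in both lines, at 0.02 to 0.08 TPM in these 3 libraries and 0.07 to 0.54 TPM in the others, against 270.4 to 340.4 TPM in the Trf1f/f line. Counts of these 3 libraries also rose most with the GC content of transcripts, with slopes of 0.249 to 0.337 log2 units per 10% GC, where no other library exceeded 0.153. The 10 genes are therefore also given against CA +GFP. That control is another line, which makes mutant RTEL1, so treatment or deletion cannot be told apart from line there. The part that fibroblast markers or GC content have in the changes was not tested. In bulk RNA, fewer cells of a type and less RNA per cell cannot be told apart.

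Per unit of transcript length, the ferritin genes were the most abundant of the 10. Group means were 2159 to 3112 TPM for Ftl1 and 1123 to 2161 TPM for Fth1, against 51.0 to 128 TPM for Tfrc and 62.3 to 122 TPM for Hmox1. Slc40a1 was the scarcest, at 0.803 to 13.6 TPM, and varied most between groups, with a ratio of 17.0 between the highest and lowest group mean. For the other 9 genes this ratio was between 1.33 (Fech) and 2.88 (Abcg2). Raw counts ran from 54 in 1 library for Slc40a1 to 67963 for Ftl1, so Slc40a1 carried the largest counting error.

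**Figure D2:**
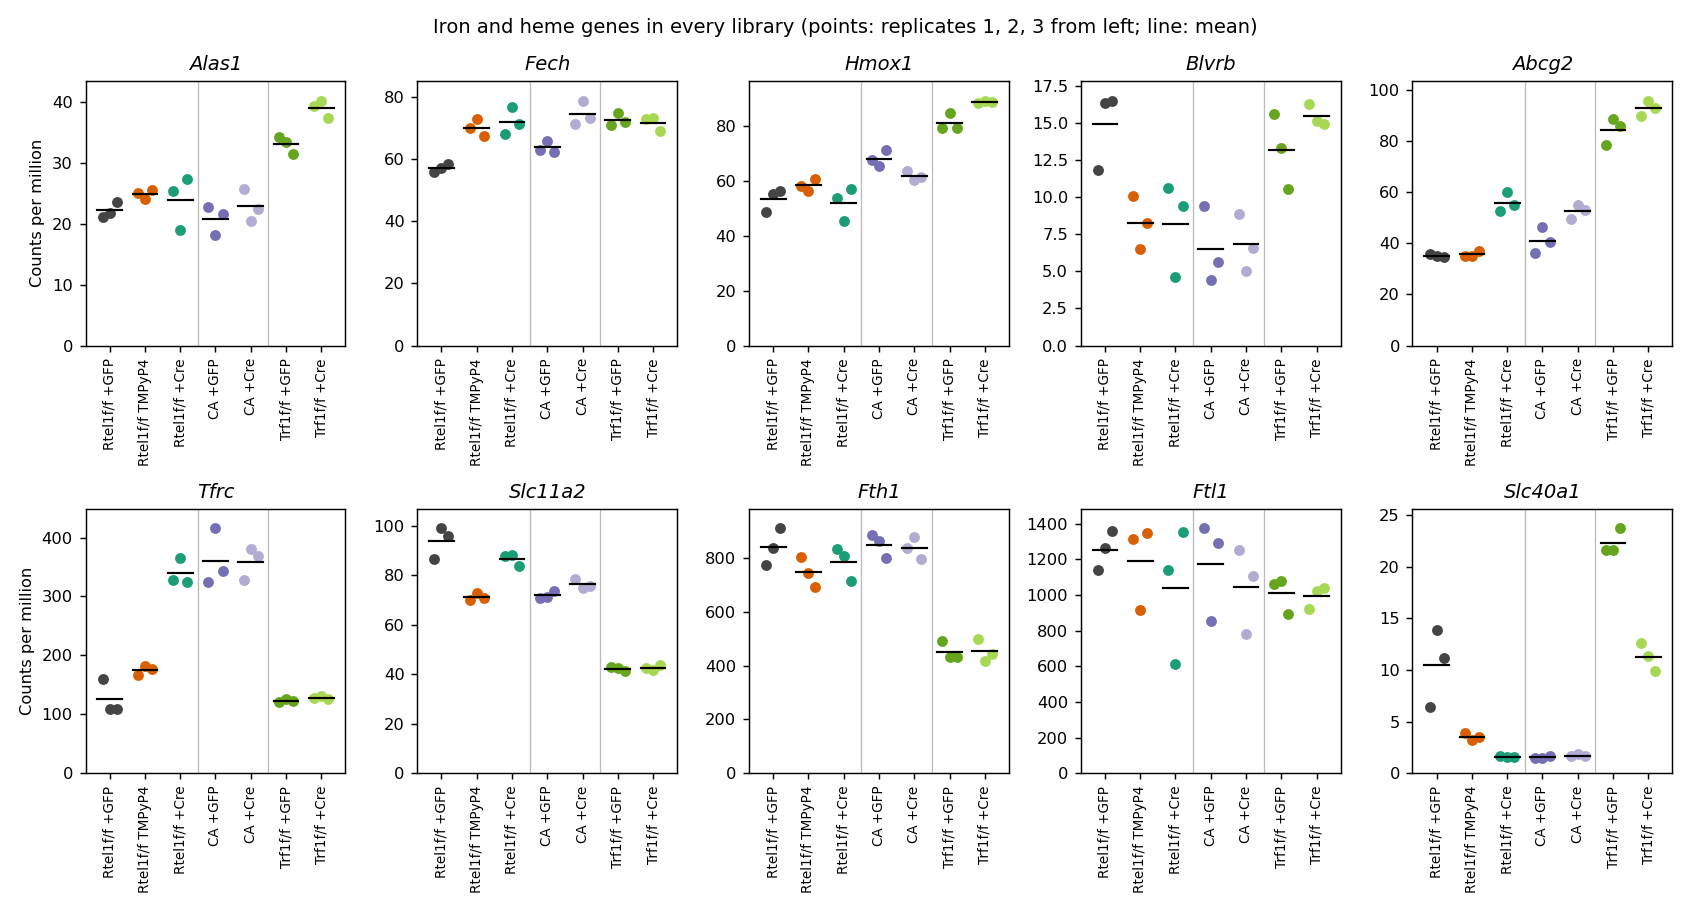
CPM of the 10 genes in each of the 21 libraries (points, replicates 1 to 3 from left) with group means (lines); every axis starts at 0. Slc40a1 is at 3.25 to 3.90 CPM with TMPyP4, between Rtel1f/f +GFP (6.41 to 13.9) and +Cre (1.53 to 1.68), and Tfrc at 166 to 182 lies between the same groups.

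TMPyP4 against +GFP in Rtel1f/f cells asks what the porphyrin did while Rtel1 stayed intact. Of the 10 genes, Fech and Tfrc rose and Slc40a1 and Slc11a2 fell, while the heme-responsive pair Alas1 and Hmox1 and the ferritin genes did not pass the test. That is 4 of 10 called with a threshold of 0.01 on the adjusted p (edgeR's quasi-likelihood test, Benjamini-Hochberg adjustment over all genes tested), where 30.0% of all tested genes were called in this comparison. The median log2 fold change of the 10 was -0.03 and that of all tested genes -0.01.

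Slc40a1 mRNA was at 6.41, 13.9 and 11.1 CPM in the +GFP libraries and TMPyP4 libraries had 3.90, 3.25 and 3.46 CPM. The groups did not overlap, and the +GFP libraries were spread more widely than the treated ones. The log2 fold change was -1.57 (SE 0.19, a fold of 0.337, edgeR adjusted p = 4.82e-06), and the gene was called in 16 of 16 alternatives with these controls, between -1.82 and -1.26. Against CA +GFP, which had 1.51, 1.47 and 1.64 CPM, the direction turned: TMPyP4 was higher by 1.19 (SE 0.20, adjusted p = 0.000265).

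Slc11a2, the carrier that moves iron out of the endosome, was at 86.5, 98.9 and 95.7 CPM in the +GFP libraries. TMPyP4 libraries had 69.8, 72.6 and 70.8 CPM. Every treated library lay below every control. The log2 fold change was -0.40 (SE 0.05, a fold of 0.759, adjusted p = 9.71e-06), again called in 16 of 16 alternatives with these controls. CA +GFP libraries were at 70.6, 71.3 and 73.7 CPM, and against them the difference was -0.02 (95% interval -0.12 to 0.09, adjusted p = 0.865).

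Tfrc, the uptake receptor, was at 161, 109 and 109 CPM in the +GFP libraries, and TMPyP4 brought 166, 182 and 176 CPM. The first +GFP library came close to the lowest treated one without overlapping it. The log2 fold change was 0.47 (SE 0.12, a fold of 1.39, adjusted p = 0.00434), called in 9 of 16 alternatives with these controls. The call was lost without +GFP replicate 2 (0.36, adjusted p = 0.0614) or 3 (0.36, 0.0597), and without TMPyP4 replicate 2 (0.44, 0.0195) or 3 (0.47, 0.0149). It was also lost in a fit of only these groups (0.47, 0.0354) and on log2(TPM + 1) with limma (0.30, 0.0517). Omission of the libraries numbered 2 of the Rtel1f/f and CA lines lost it as well (adjusted p = 0.0641). Against CA +GFP, at 324, 416 and 343 CPM, Tfrc was lower with TMPyP4 by 1.05 on the log2 scale (a log2 fold change of -1.05, SE 0.12, adjusted p = 5.13e-06).

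Fech, which completes heme, was at 55.9, 57.1 and 58.3 CPM in control libraries and at 69.9, 72.8 and 67.3 CPM after TMPyP4, with no overlap. Its log2 fold change was 0.29 (SE 0.06, a fold of 1.23, adjusted p = 0.000391). The call was lost without +GFP replicate 2 (0.28, adjusted p = 0.0145) or 3 (0.29, 0.0109), on log2(TPM + 1) with limma (0.10, 0.264), and against CA +GFP (0.14, 0.0758).

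The messages that heme itself is known to set did not pass the test. Hmox1 was at 48.6, 55.5 and 56.57 CPM in control and at 58.1, 56.59 and 60.9 CPM in treated libraries, so the highest control and the lowest treated library nearly met. Its log2 fold change was 0.13 (95% interval -0.03 to 0.28, adjusted p = 0.171). Alas1, whose message heme lowers in many cells, was at 21.1, 21.8 and 23.6 CPM against 25.1, 24.1 and 25.5 CPM, a log2 fold change of 0.17 (95% interval -0.07 to 0.41, adjusted p = 0.247). After each library was corrected for the GC content of transcripts, Hmox1 (0.27, adjusted p = 0.00053) and Alas1 (0.32, adjusted p = 0.00191) were called higher. The median of all tested genes was 0.06 under that correction. On log2(TPM + 1) with limma they were at -0.06 and -0.02, on a scale where the median of all tested genes was -0.14.

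The remaining heme genes and the ferritin genes were not called in this fit. Blvrb was at 11.9, 16.4 and 16.5 CPM in control and at 10.1, 6.48 and 8.29 CPM in treated libraries. Its log2 fold change was -0.85 (95% interval -1.49 to -0.22, adjusted p = 0.0301). Blvrb was called lower in 6 of 16 alternatives with these controls, among them DESeq2 (adjusted p = 0.00774), a fit of only these groups (0.0055), the GC correction (-0.57, 0.00886) and log2(TPM + 1) with limma (0.00484), and in 0 of 6 that left out a library. Against CA +GFP it lay on the other side of 0 (0.34, adjusted p = 0.448). Abcg2, the porphyrin exporter, was at 34.7 to 35.8 CPM against 34.8 to 37.1 CPM, a log2 fold change of 0.02 (95% interval -0.14 to 0.19), and at -0.20 (adjusted p = 0.0634) against CA +GFP. Fth1 was at 774 to 910 CPM against 693 to 805 CPM (-0.17, 95% interval -0.35 to 0.01), and Ftl1 at 1139 to 1361 CPM against 917 to 1347 CPM (-0.07, 95% interval -0.59 to 0.45). Against CA +GFP they were at -0.19 (adjusted p = 0.124) and 0.023 (adjusted p = 0.966). Fth1 was called lower on log2(TPM + 1) with limma (-0.37, adjusted p = 0.00556), and Ftl1 higher with the GC correction and the replicate block together (0.25, adjusted p = 0.00812). The interval of Ftl1 is wide enough to hold a change of the size seen for Slc11a2. Ferritin genes have processed copies elsewhere in the mouse genome, and how the counting shared reads with those was not analysed here.

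**Figure D3:**
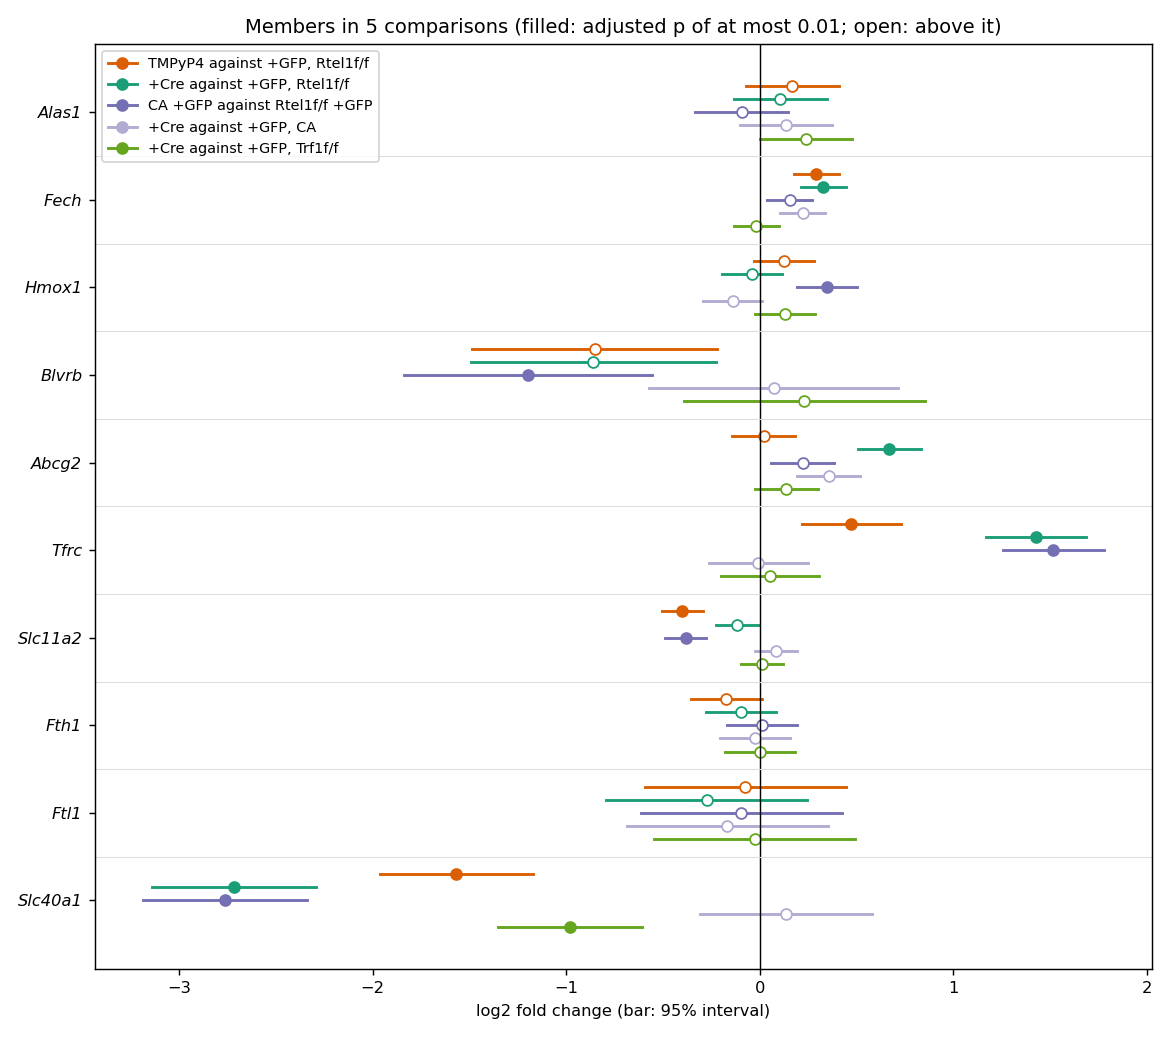
Log2 fold changes of the 10 genes with 95% intervals in 5 comparisons, filled where the adjusted p did not exceed 0.01. For Tfrc and Slc40a1, CA +GFP against Rtel1f/f +GFP (1.52 and -2.76) lies beside +Cre against +GFP (1.43 and -2.72), and TMPyP4 lies nearer to 0.

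Deletion of Rtel1 was compared with the same +GFP libraries, so the values of both comparisons share their controls and are given side by side. With +Cre 4 of the 10 genes were called, where 43.0% of all tested genes were called: Fech, Abcg2 and Tfrc rose and Slc40a1 fell. Tfrc stood at 327, 365 and 325 CPM with +Cre, a log2 fold change of 1.43 (SE 0.12, adjusted p = 3.51e-08) beside 0.47 with TMPyP4. Slc40a1 stood at 1.68, 1.56 and 1.53 CPM, a log2 fold change of -2.72 (SE 0.20, adjusted p = 5.65e-09) beside -1.57. Every +Cre library was outside the range of the +GFP libraries for both genes. Against CA +GFP neither gene was called with +Cre, and both values lay on the other side of 0: Tfrc at -0.09 (95% interval -0.34 to 0.16, adjusted p = 0.746) and Slc40a1 at 0.05 (95% interval -0.41 to 0.50, adjusted p = 0.945). Fech, at 67.8, 76.6 and 71.0 CPM, changed by 0.33 (SE 0.06, adjusted p = 6.9e-05), though by 0.09 (adjusted p = 0.306) on log2(TPM + 1) and by 0.17 (adjusted p = 0.046) against CA +GFP.

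Abcg2 was the gene that +Cre moved and TMPyP4 did not pass the test for. Its level was 35.8, 34.9 and 34.7 CPM in control and 52.5, 60.1 and 55.1 CPM in deleted cells, with no overlap, a log2 fold change of 0.67 (SE 0.08, a fold of 1.59, adjusted p = 1.12e-06). Slc11a2, at 83.5 to 88.2 CPM with +Cre, was not called (-0.12, 95% interval -0.22 to -0.01, adjusted p = 0.0624). Hmox1 (-0.04, 95% interval -0.19 to 0.12), Alas1 (0.11, -0.13 to 0.35), Fth1 (-0.10, -0.28 to 0.08) and Ftl1 (-0.27, -0.79 to 0.25) were not called either, nor was Blvrb (-0.86, adjusted p = 0.0223). In Blvrb, Ftl1 and Hmox1 the second +Cre library was the lowest of the 3, at 4.64, 615 and 45.5 CPM. That library also had low counts for GC-rich transcripts, with a slope of -0.378 log2 units per 10% GC, and its part in these values was not tested. Against CA +GFP, +Cre called 3 of the 10 genes, where 7.76% of all tested genes were called: Abcg2 (0.45, SE 0.08, adjusted p = 0.00054) and Slc11a2 (0.27, SE 0.05, adjusted p = 0.00145) were higher and Hmox1 (-0.39, SE 0.07, adjusted p = 0.00134) was lower. Blvrb (0.34), Alas1 (0.20), Fth1 (-0.11) and Ftl1 (-0.18) had adjusted p of 0.58, 0.317, 0.503 and 0.753 there.

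The direct comparison of TMPyP4 with +Cre in Rtel1f/f cells needs no +GFP library. It called 4 of the 10 genes, against 15.2% of all tested genes: Slc40a1 was higher with TMPyP4, and Abcg2, Tfrc and Slc11a2 were lower. Tfrc differed by -0.96 (SE 0.12, a fold of 0.516, adjusted p = 1.49e-05), Slc40a1 by 1.15 (SE 0.21, adjusted p = 0.000435), Abcg2 by -0.65 (SE 0.08, adjusted p = 7.64e-06) and Slc11a2 by -0.28 (SE 0.05, adjusted p = 0.000509). In each of these 4 genes the libraries of the groups did not overlap. Fech differed by -0.04 (95% interval -0.15 to 0.08), Blvrb by 0.01 (-0.63 to 0.65), Alas1 by 0.06 (-0.18 to 0.30) and Hmox1 by 0.17 (0.01 to 0.32, adjusted p = 0.112). Calls for Abcg2, Tfrc and Slc40a1 held in 16 of 16 alternatives and that for Slc11a2 in 14 of 16, the exceptions being a fit of only these groups (adjusted p = 0.0205) and log2(TPM + 1) with limma (0.0348).

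In the CA line Cre called 0 of the 10 genes, where 1.09% of all tested genes were called, and 2 of the 10 had an unadjusted p under 0.05. These were Abcg2, at 36.3, 46.3 and 40.4 CPM in undeleted and 49.6, 54.9 and 52.8 CPM in deleted cells (0.36, SE 0.08, edgeR adjusted p = 0.0149), and Fech (0.22, SE 0.06, adjusted p = 0.0339). DESeq2 also called 0. With the replicate number as a block, which the correlated deviations of same-numbered libraries allow in this line, Abcg2 was called (1 gene). Tfrc was at 324 to 416 CPM with +GFP and 328 to 381 CPM with +Cre (-0.01, 95% interval -0.26 to 0.25), and Slc40a1 at 1.47 to 1.64 and 1.63 to 1.82 CPM (0.14, 95% interval -0.31 to 0.58).

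In the Trf1f/f line Cre called 1 of the 10 genes, where 3.42% of all tested genes were called. Slc40a1 was at 21.6, 21.6 and 23.7 CPM in control and at 12.6, 11.4 and 9.88 CPM in deleted cells, with no overlap. Its log2 fold change was -0.98 (SE 0.18, a fold of 0.506, adjusted p = 0.00152), and the call was lost without +Cre replicate 3 (-0.90, adjusted p = 0.0114). Tfrc, at 120.4 to 127 and 126 to 130.3 CPM, differed by 0.05 (95% interval -0.20 to 0.31). Hmox1, at 79.3 to 85.0 and 88.7 to 89.4 CPM, differed by 0.13 (95% interval -0.02 to 0.28).

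To ask whether the porphyrin effect differed from a Cre effect, the TMPyP4 change was tested against the Cre change of each other line, in which both comparisons have their own controls. Against the CA line 2 of the 10 genes differed, where 15.8% of all tested genes did: Slc40a1 by -1.70 (SE 0.28, adjusted p = 0.000287) and Slc11a2 by -0.48 (SE 0.07, adjusted p = 0.000119). Against the Trf1f/f line 2 differed, where 20.5% of all tested genes did: Slc11a2 by -0.41 (SE 0.07, adjusted p = 4e-04) and Fech by 0.31 (SE 0.08, adjusted p = 0.00564). The Fech difference kept its call in 8 of 21 alternatives and in 2 of 12 that left out a library, those without TMPyP4 replicate 3 or Trf1f/f +GFP replicate 1. Tfrc (0.48 and 0.42) missed the threshold in both, with adjusted p of 0.0438 and 0.0685. Hmox1 differed by 0.27 (95% interval 0.05 to 0.49, adjusted p = 0.0623) and -0.0032 (-0.22 to 0.21). The same test of the Rtel1f/f Cre change called Tfrc (1.43) and Slc40a1 (-2.85) against the CA line (25.1% of all tested genes) and these 2 with Fech and Abcg2 against the Trf1f/f line (30.2%). Slc40a1 started at 1.47 to 1.64 CPM in CA +GFP and at 6.41 to 13.9 CPM in Rtel1f/f +GFP. That left less room for a fall with Cre in the CA line, which bears on both Slc40a1 differences from it.

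The controls themselves differed. CA +GFP and Rtel1f/f +GFP cells, neither of them deleted or treated, differed in 5 of the 10 genes, where 44.7% of all tested genes differed. Tfrc was higher in CA +GFP by 1.52 (SE 0.12, adjusted p = 1.74e-08) and Hmox1 by 0.35 (SE 0.07, adjusted p = 0.000587). Slc40a1 (-2.76, SE 0.20), Blvrb (-1.20, SE 0.30) and Slc11a2 (-0.38, SE 0.05) were lower. With CA +GFP in place of Rtel1f/f +GFP as the control for TMPyP4, 2 of the 10 genes were called, Tfrc lower and Slc40a1 higher, and 17.0% of all tested genes. The direction of the TMPyP4 difference in Tfrc and Slc40a1 thus depended on which +GFP libraries served as control, while Hmox1 and Alas1 were at -0.22 (adjusted p = 0.0331) and 0.26 (adjusted p = 0.103) against CA +GFP. The CA line makes mutant RTEL1 and was not given TMPyP4, so treatment and line cannot be told apart in that contrast.

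In CPM, 5 of the 10 genes set the Trf1f/f line apart, and so did 36.1% of all tested genes. Hmox1, Alas1 and Abcg2 were highest in the Trf1f/f line, where every library exceeded every library of the other lines, and Slc11a2 and Fth1 were lowest there, again without overlap. For Slc40a1 the order was Trf1f/f +GFP (22.3 CPM), Trf1f/f +Cre (11.3), Rtel1f/f +GFP (10.5), TMPyP4 (3.54), CA +Cre (1.70), Rtel1f/f +Cre (1.59) and CA +GFP (1.54). Libraries of neighbouring groups overlapped between Trf1f/f +Cre and Rtel1f/f +GFP and among the 3 lowest groups. For Tfrc the 3 highest groups, CA +GFP (361), CA +Cre (359) and Rtel1f/f +Cre (339), overlapped, TMPyP4 (175) stood alone, and the 3 lowest, Trf1f/f +Cre (128), Rtel1f/f +GFP (126) and Trf1f/f +GFP (123), overlapped. The order for Slc40a1 was the same in TPM, and 2 to 7 groups changed place for the other 9 genes.

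Over the 7 group means in log2 CPM, the genes of at least 5 CPM most like Tfrc were Eif4g1, Mat2a and Nupl1 (Pearson r of 0.999, 0.998 and 0.997), and those most like Slc40a1 were Fkbp7, Ap5s1 and 2510009E07Rik (0.997, 0.995 and 0.995). Those most like Hmox1 were Nbea, Mcam and Rab8a (0.987, 0.987 and 0.980), and those most like Alas1 were Asah2, Anxa11 and Zfp365 (0.992, 0.991 and 0.991). The 7 points share libraries, depth and line differences, so these values are descriptions.

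The rest of the pathway was read from 9 lists with 74 further genes, of which 64 were tested. With TMPyP4 20 of these 64 were called (31.2%), 11 higher and 9 lower, beside the 30.0% of all tested genes, and with +Cre in Rtel1f/f cells 30 (46.9%), 20 higher and 10 lower, beside 43.0%. Their median log2 fold changes were 0.14 and 0.11. In the direct comparison 11 were called (17.2%, beside 15.2%), in the CA line 1 (1.56%, beside 1.09%) and in the Trf1f/f line 2 (3.12%, beside 3.42%). Against CA +GFP, TMPyP4 gave 11 calls (17.2%, beside 17.0%), 7 higher and 4 lower. In that comparison Cpox, Slc48a1 and Slc7a11 were higher, as they were against Rtel1f/f +GFP, while Cp and Cyp1b1, lower against Rtel1f/f +GFP, were higher (0.86 and 0.78). Bach1 (0.20, adjusted p = 0.0329), Slc25a37 (-0.26, 0.0266) and Bola3 (-0.25, 0.0862) lay on the other side of 0 without a call.

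Heme synthesis had 12 tested genes, Alas1 and Fech among them. With TMPyP4 3 rose and 1 fell (median 0.16), and with +Cre 4 rose and 1 fell (median 0.24). These 4 and 5 calls stand beside 30.0% and 43.0% of all tested genes. Cpox, the oxidase that makes protoporphyrinogen, was at 40.9, 30.2 and 32.3 CPM in control and at 71.3, 80.5 and 83.5 CPM in treated libraries. All 3 treated libraries were above every other library of the 7 groups. Its log2 fold change was 1.19 (SE 0.12, a fold of 2.28, adjusted p = 7.37e-07), and TMPyP4 also exceeded +Cre by 0.84 (SE 0.12, adjusted p = 4.39e-05) and CA +GFP by 0.65 (SE 0.12, adjusted p = 0.000433). Urod, the decarboxylase before it, fell with TMPyP4 (-0.54, SE 0.10, adjusted p = 0.000375), and Clpx, a chaperone subunit that acts on the ALAS enzymes, rose (0.26, SE 0.07). With +Cre, Tmem14c (0.46) and Clpx (0.27) were among those that rose and Ppox (-0.53) fell. The count of 4 with TMPyP4 became 9 after the GC correction and 2 without +GFP replicate 2 or 3. The count of 5 with +Cre became 9 after the GC correction, 8 without +GFP replicate 1 and 3 without +GFP replicate 2. It was 0 against CA +GFP, where 7.76% of all tested genes were called. Apart from that control, the share of all tested genes called was not computed for these alternatives.

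Heme breakdown and transport had 13 tested genes, of which 1 rose and 1 fell with TMPyP4 and 2 rose and 1 fell with +Cre. In these comparisons 30.0% and 43.0% of all tested genes were called. Slc48a1, which carries heme out of the lysosome, was at 129, 116 and 125 CPM in control and at 147, 149 and 149.8 CPM in treated libraries. It rose with TMPyP4 (0.27, SE 0.05, adjusted p = 0.000632) and was also higher than with +Cre (0.25) and than in CA +GFP (0.22). Bach1, the heme-sensing repressor of Hmox1, fell with TMPyP4 (-0.27, SE 0.07) and with +Cre (-0.37, SE 0.07). The count with TMPyP4 was 6 under the replicate block or the GC correction, 0 without +GFP replicate 2, and 1 without +GFP replicate 3 or without TMPyP4 replicate 2 or 3. Blvra, the main biliverdin reductase, rose with +Cre (0.49, SE 0.10) and was at 0.23 (adjusted p = 0.071) with TMPyP4.

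Iron uptake had 7 of 10 tested genes called in both comparisons, beside 30.0% (TMPyP4) and 43.0% (+Cre) of all tested genes, and 8 of 10 between CA +GFP and Rtel1f/f +GFP, beside 44.7%. With TMPyP4, Tfrc and the mitochondrial importer Slc25a37 (0.61, SE 0.08) rose, and Slc11a2, the endosomal reductase Steap3 (-1.04, SE 0.15), Slc39a8 (-1.07), Tfr2 (-1.60) and Cybrd1 (-1.65) fell, the last 3 from group means under 1 CPM. With +Cre, Tfrc, Slc25a37 (0.98) and Slc39a14 (0.42) rose and Steap3 (-1.21), Steap2 (-0.47), Tfr2 (-1.73) and Cybrd1 (-2.07) fell. Against CA +GFP the counts were 2 and 1, beside 17.0% and 7.76% of all tested genes. Without +GFP replicate 2 or TMPyP4 replicate 2 the TMPyP4 count was 4. In the CA line Slc39a8 alone of these 10 changed with Cre (1.36), where 1.09% of all tested genes were called.

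In iron export, Slc40a1 and its partner oxidase Cp fell in both comparisons (Cp -1.36 with TMPyP4 and -1.28 with +Cre), 2 of 3 tested. The counts in this paragraph stand beside 30.0% (TMPyP4) and 43.0% (+Cre) of all tested genes. Cp was at 4.70, 9.27 and 6.51 CPM in control and at 2.95, 2.70 and 2.36 CPM in treated libraries, and CA +GFP libraries had 1.302 to 1.55 CPM. In storage, the iron chaperone Pcbp2 rose in both (0.36 and 0.41), 1 of 5. Among regulators, 1 of 6 fell with TMPyP4, the hypoxia factor Epas1 (-1.67). Its counts were low, at 0.668 to 1.56 CPM in control and 0.169 to 0.539 CPM in treated libraries, with CA +GFP at 0.525 to 0.651 CPM. With +Cre Aco1, whose protein is one of the iron regulatory proteins, rose (0.22) and Hfe fell (-0.61).

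Iron-sulfur cluster assembly had 11 tested genes, of which 3 rose with TMPyP4 (Bola3 0.44, Nfs1 0.26, Isca1 0.22) and 4 with +Cre (Bola3 0.74, Glrx5 0.63, Isca1 0.32, Nfs1 0.20). In these comparisons 30.0% and 43.0% of all tested genes were called. The TMPyP4 count was 0 without +GFP replicate 2 or 3 and 1 without TMPyP4 replicate 2 or 3. It was 0 against CA +GFP, where 17.0% of all tested genes were called. Of 12 tested NRF2 targets, oxidative stress genes that include Hmox1, 3 rose with TMPyP4 (Slc7a11 0.58, Me1 0.45, Gclc 0.40). With +Cre 7 rose, among them Prdx1 (0.70), Srxn1 (0.67) and Gsr (0.61), and Slc7a11 fell (-0.64). These 3 and 8 calls stand beside the same 30.0% and 43.0% of all tested genes. Slc7a11, the cystine importer, was at 53.0, 34.8 and 34.2 CPM in control and at 64.3, 60.5 and 57.9 CPM in treated libraries, higher than with +Cre by 1.23 (SE 0.13, adjusted p = 1.4e-06) and than in CA +GFP by 1.73 (SE 0.13). The median of the list was 0.19 with TMPyP4 against Rtel1f/f +GFP and -0.19 against CA +GFP. In the latter 1 gene was higher and 3 were lower, beside 17.0% of all tested genes called. TMPyP4 against +Cre also had 1 higher and 3 lower, beside 15.2% of all tested genes. +Cre against CA +GFP had 0 higher and 1 lower, beside 7.76%. CA +GFP against Rtel1f/f +GFP had 8 higher and 1 lower of the 12, beside 44.7%. The TMPyP4 count for NRF2 targets was 0 without +GFP replicate 2 or 3, and the +Cre count of 8 was 5 without +GFP replicate 2 or 3 or without +Cre replicate 2. Of 3 tested targets of the aryl hydrocarbon receptor, which binds planar ring compounds, Cyp1b1 fell with TMPyP4 (-0.66, SE 0.07) and with +Cre (-1.81, SE 0.08), and Tiparp rose with +Cre (0.46).

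**Figure D4:**
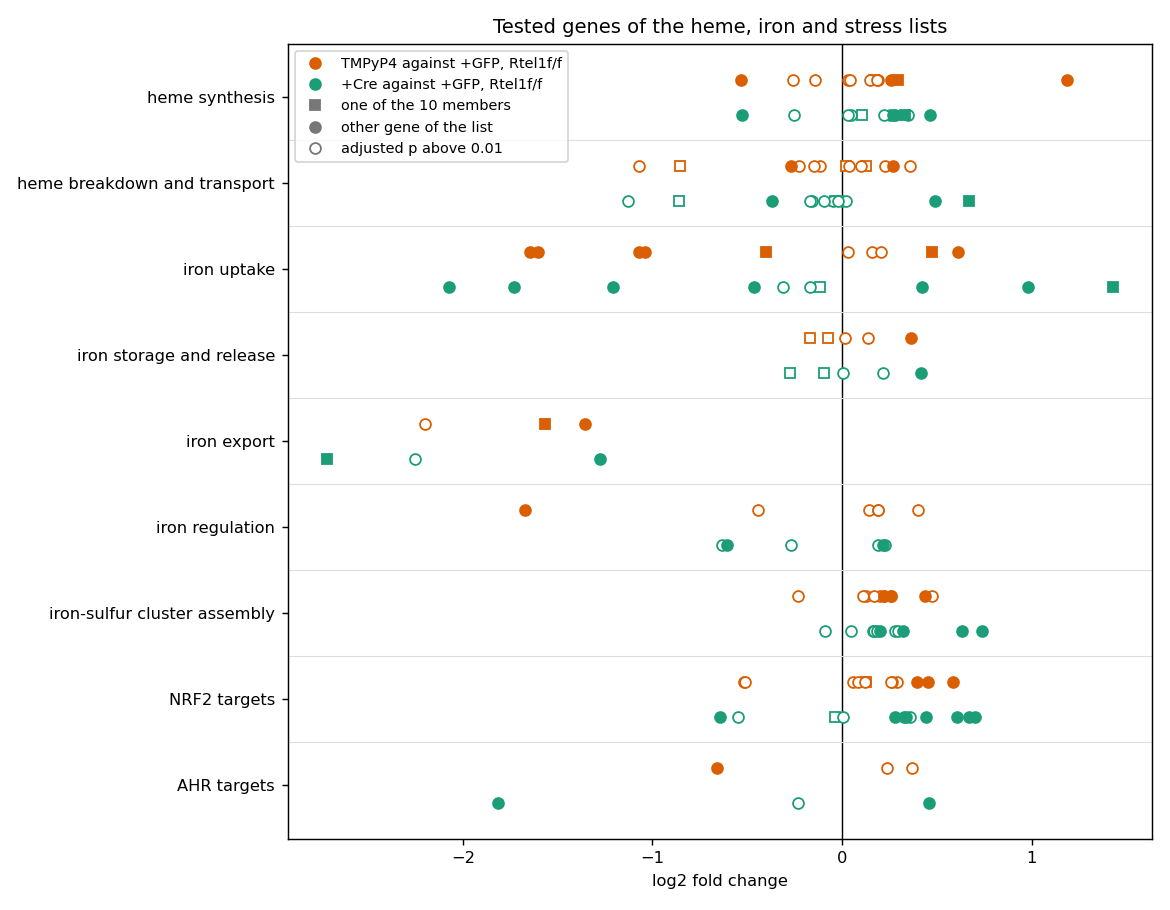
Log2 fold changes of the tested genes of 9 lists with TMPyP4 (orange) and +Cre (green) against Rtel1f/f +GFP, filled where the adjusted p did not exceed 0.01, with squares for the 10 iron and heme genes. Cpox, at 1.19 with TMPyP4, is the rightmost point of heme synthesis, and iron uptake reaches in both comparisons below -1.6.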

How the data were processed

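Expected counts per mm10 RefSeq gene were deposited by the authors, who had used cutadapt 1.9.1 for trimming, STAR 2.5.2a for alignment and RSEM 1.3.0, set to read the strand, for counting. All were whole numbers. The authors also deposited TPM from RSEM. Labels and methods disagree on reads (101 or 75 bases) and serum (15% or 10%). The submitters' processing notes also name DESeq2 1.28.0.

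The expected counts were analysed here in R 4.3.3 with edgeR 4.0.16 (TMM, filterByExpr by group, robust two-sided quasi-likelihood test, 1 coefficient per group over 21 libraries, 14 residual degrees of freedom, Benjamini-Hochberg adjustment, threshold 0.01). CPM are TMM-scaled counts, errors are standard errors or 95% intervals, and group levels are ranges or means of 3 libraries. The 10 genes and all lists were chosen with earlier results of these data known. Named list genes are those called without overlap between the libraries in TMPyP4 or +Cre against +GFP, with a mean of at least 1 CPM, up to 4 a list and comparison. Other list genes, such as Tfr2, Cybrd1, Epas1 and Slc39a14, were named after their values were seen. A gene that this rule names is not reported here. No pair of libraries shared more than 3.67% identical counts.

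Alternatives were DESeq2 1.42.0, its size factors, no filter, at least 10 counts in every library, only the groups compared, a threshold of 0.05, the replicate block, the +GFP libraries of the CA line as control, and each library left out. Chosen after seeing the data were a GC correction (loess span 0.3, 96.8% of tested genes with a GC content) with and without the block, log2(TPM + 1) with limma 3.58.1, and omission of the libraries numbered 2. Replicate numbers were taken to pair libraries where all 3 correlations of deviations across 11840 genes exceeded 0.1. This held for +Cre and +GFP of the CA line (0.86, 0.84, 0.42) and for +Cre and TMPyP4 in Rtel1f/f cells (0.72, 0.76, 0.41). It did not hold for pairs with Rtel1f/f +GFP nor within the Trf1f/f line. Some groups of different lines also passed, such as CA +GFP with TMPyP4 (0.78, 0.69, 0.30) and with Trf1f/f +GFP (0.83, 0.36, 0.26). The shared deviations were therefore not particular to a line and do not show that cultures were paired. The test was also run on simulated data for TMPyP4 against +GFP, with 200 of 13638 genes changed, 50 at each fold. It called 90% of these at a fold of 0.5, 8% at 0.75, 50% at 1.5 and 88% at 2. In the data 30.0% of tested genes were called, so the adjustment was stricter in the simulation. These shares therefore do not give the sensitivity of the test in the data. Figures used Python 3.11.15 and matplotlib 3.10.9.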

Additional observations from a re-analysis of the deposited data

Results flagged for a closer look

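Changes under the same kind of contrast differed between lines or treatments in 10 results, each by edgeR's quasi-likelihood test of the difference with Benjamini-Hochberg adjustment. The TMPyP4 change in Rtel1f/f cells differed from the Cre change of the CA line by -1.70 (SE 0.28, adjusted p = 0.000287) for Slc40a1 and by -0.48 (SE 0.07, adjusted p = 0.000119) for Slc11a2. It differed from the Cre change of the Trf1f/f line by 0.31 (SE 0.08, adjusted p = 0.00564) for Fech and by -0.41 (SE 0.07, adjusted p = 4e-04) for Slc11a2. The Fech difference kept its call in 8 of 21 alternatives.

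The Cre change of Rtel1f/f cells differed from that of the CA line by 1.43 (SE 0.17, adjusted p = 6.62e-06) for Tfrc and by -2.85 (SE 0.29, adjusted p = 1.54e-06) for Slc40a1. It differed from that of the Trf1f/f line by 0.35 (SE 0.08, adjusted p = 0.0017) for Fech, 0.53 (SE 0.11, adjusted p = 0.000753) for Abcg2, 1.38 (SE 0.17, adjusted p = 7.38e-06) for Tfrc and -1.73 (SE 0.26, adjusted p = 5.3e-05) for Slc40a1. All 10 differences use the 3 Rtel1f/f +GFP libraries, which stood apart, so a difference of effects and a difference of these controls cannot be told apart.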

How the results depend on the processing

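Of the fold changes of the 10 genes under an alternative, 1308 kept their call without a counted turn, 45 gained and 42 lost the call, and 35 turned. A turn of an uncalled value was counted only where it moved by over 1 SE, so some of the 1308 also crossed 0. For example, Abcg2 with TMPyP4 fell from 0.02 to -0.0065 with a library left out. Many of these fits share most of their libraries, so the numbers do not measure how rare a turn is. The turns were as follows. For TMPyP4 against +GFP they were Abcg2 (-0.10 with the GC correction, with or without the block, -0.20 against CA +GFP and -0.17 on TPM), Ftl1 (0.26 and 0.25 with the GC correction, the latter with the block), Hmox1 (-0.22 against CA +GFP, -0.064 on TPM), Alas1 (-0.023 on TPM), and against CA +GFP Blvrb (0.34), Tfrc (-1.05) and Slc40a1 (1.19). For +Cre against +GFP they were, with the GC correction alone and with the block, Hmox1 (0.15 both), Fth1 (0.12 and 0.11) and Ftl1 (0.12 and 0.10); Hmox1 without the libraries numbered 2 (0.073); Alas1 on TPM (-0.14); and against CA +GFP Blvrb (0.34), Tfrc (-0.089), Slc40a1 (0.047) and Slc11a2 (0.27). For TMPyP4 against +Cre, Alas1 was -0.056 without the libraries numbered 2. With a library left out Alas1 ranged from -0.093 to 0.13 and Ftl1 from -0.080 to 0.41, and both were below 0 without Rtel1f/f +Cre replicate 2. For TMPyP4 against CA +GFP, Slc11a2 was 0.042 on TPM. For CA +GFP against Rtel1f/f +GFP, the GC correction gave Alas1 0.14 and Ftl1 0.40, each also with the block, and TPM gave Fech -0.089, Abcg2 -0.030 and Fth1 -0.23. Apart from the settings built on other libraries or another scale, the cause was not tested. TPM moved the median of all tested genes to -0.14 (TMPyP4) and -0.19 (+Cre), and the GC correction moved it to 0.061 and 0.063.

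Apart from the CA +GFP control, the share of all tested genes called under an alternative was not computed. The counts in this and the next paragraph, and those of the lists above, therefore cannot be read as particular to these genes. Called genes of the 10 in TMPyP4 against +GFP (4) numbered 7 with the GC correction, 8 with GC correction and block, 2 against CA +GFP and 2 to 4 with a library left out (2 without +GFP replicate 2 or 3). In +Cre against +GFP (4) they numbered 7 with GC correction and block, 7 on TPM, 3 against CA +GFP (Abcg2 of the 4, with Hmox1 and Slc11a2) and 4 to 5 with a library left out, and in TMPyP4 against +Cre 4 throughout those omissions. In the CA line (0) they numbered 2 at an adjusted p of 0.05, 2 with the GC correction, 1 with GC correction and block, and 0 to 1 with a library left out (1 without CA +GFP replicate 2), and in the Trf1f/f line (1) 0 to 1. The TMPyP4 change minus that of the CA line (2) gave 4 at an adjusted p of 0.05, 4 with the GC correction, 5 with the block added, 1 without the libraries numbered 2 and 2 to 3 with a library left out. Minus that of the Trf1f/f line (2) it gave 1 with size factors, 1 without a filter, 4 with GC correction and block, 1 without the libraries numbered 2 and 1 to 3 with a library left out. TMPyP4 against CA +GFP (2) gave 4 with the GC correction, 5 with the block added and 2 to 3, CA against Rtel1f/f +GFP (5) gave 4 to 6, and the Rtel1f/f Cre change minus that of the CA line (2) gave 4 at an adjusted p of 0.05 and 2 to 3, and minus that of the Trf1f/f line (4) 3 to 4.

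Under a replicate block, 5 genes were called in TMPyP4 against +GFP, 5 in +Cre against +GFP, 4 in TMPyP4 against +Cre, 1 in the CA line, 1 in the Trf1f/f line, 3 and 2 in the TMPyP4 change minus those of the CA and Trf1f/f lines, 2 against CA +GFP, 7 between the +GFP groups, and 3 and 5 in the Rtel1f/f Cre change minus those lines. Adding the counts of near-identical copies of Fth1 and Ftl1 was not run, because the table used here lists none of the symbols named for it. In the simulation, where 200 of 13638 genes were changed, a fold of 0.75 was called for 8% of genes. That share does not carry over to Slc11a2, because 30.0% of all tested genes were called in the data.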
